A study of Danio rerio with 26 samples.

Results

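The genes described here are the cell cycle genes of the adult zebrafish forebrain: 24 genes of DNA replication in S phase and 28 genes of mitosis, taken as a list of symbols. The rule used no measured value, but the list was drawn up with earlier results of these data known. Of these 52 genes, 45 had a probe set (the group of array probes read as 1 value) that the platform annotation gives to that symbol alone, 19 of the replication genes and 26 of the mitosis genes, and each of the 45 had 1 such probe set. The comparison set was all 19260 genes named in this way. No single-symbol probe set was found for mcm2, rrm2, dhfr and tpx2, and mcm5, uhrf1 and mad2l1 were named only on probe sets that carry several symbols, so these 7 members were not analysed here.

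The study measured RNA from 3 pieces of the telencephalon of zebrafish that carry the Tg(gfap:gfp)mi2001 transgene, which drives a green fluorescent protein from the promoter of gfap, a gene of radial glia. All 26 arrays came from fish of 3 to 6 months of that line, so the uninjured fish carried the transgene too, and no sorting of fluorescent cells is described. The medial zone, the parenchyma of the dorsal telencephalon and its subventricular zone (dorsal SVZ) were each taken without a lesion, at day 2 and at day 7 after a stab wound. The parenchyma gave 2, 3 and 3 arrays at these stages, the dorsal SVZ 3, 3 and 3, and the medial zone 2, 4 and 3. The labels call the arrays of a group biological replicates and give no number of animals behind an array, and the treatment text describes an injection into the brain ventricle through a hole in the skull, so what the wounded fish received is known only as far as these labels say.

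Cells that divide copy their genome once. Origins of replication are licensed in G1 by loading the MCM helicase with the help of cdc6, and they fire in S phase, when primase and polymerase alpha start new strands, pcna clamps the polymerases to DNA, fen1 and lig1 finish the lagging strand, and ribonucleotide reductase and thymidylate synthase supply the nucleotides. In G2 and mitosis, cyclins A and B with cdk1, the aurora and polo kinases, the kinetochore and the spindle motors condense, attach and separate the chromosomes, under transcription factors such as foxm1 and B-Myb. In the adult zebrafish telencephalon the radial glia and the committed progenitors that line the ventricle divide through life, while the parenchyma holds mostly neurons, glia, vessels and microglia. A piece of tissue was measured, so more dividing cells and more of a transcript per dividing cell cannot be told apart.

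All values are log2 intensities, so a difference of 1 is a doubling, and levels were compared between arrays within a gene and not between genes. A gene was called changed where limma, fitted to all 26 arrays, gave a Benjamini-Hochberg adjusted p under 0.05 over the 19260 genes. The median over all probe sets was 3.09, a low value at which a probe set shows little signal, and the mean over all arrays of 6 members lay under it (cdc45, mcm3, mcm10, prim1, birc5a and ndc80). The median of each array lay between 3.01 and 3.21, and the highest correlation between any pair of arrays was 0.983, so no array was a copy of another. Marker genes were read beside the tissue labels. The means of gfap stood between 7.13 and 8.37 in all 9 groups, and the neuronal genes elavl3 and snap25a stood above 9.6 in each. Without a lesion gfap averaged 7.635 in the parenchyma, 7.30 in the dorsal SVZ and 7.48 in the medial zone. Its highest mean was in the parenchyma at day 2, so gfap did not mark the dorsal SVZ or the medial zone off from the parenchyma. Another radial glia gene, fabp7a, did: without a lesion it averaged 9.58 in the parenchyma, 11.415 in the dorsal SVZ and 11.28 in the medial zone. The ciliated-cell factor foxj1a averaged 3.45 in the unlesioned parenchyma, 4.85 in the unlesioned dorsal SVZ and 4.19 in the unlesioned medial zone. The T cell kinase lck stayed near or under the table median in every group. An array-wide value of each class was the median over its genes of the deviation from that gene's mean over the 26 arrays.

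For replication genes and mitosis genes alike, the medial zone at day 2 stood above every other group. The groups below it were not ordered alike: the parenchyma at day 2 had a mean of −0.09 for mitosis, above the dorsal SVZ at day 7 (−0.31), and of −0.30 for replication, below it (−0.09). The 4 arrays of the medial zone at day 2 gave replication values of 1.31, 0.94, 0.96 and 0.85 and mitosis values of 1.404, 1.002, 1.02 and 1.004. All other arrays lay below these. The unlesioned medial zone gave 0.088 and 0.30 for replication and 0.001 and 0.18 for mitosis. The medial zone at day 7 gave 0.22, 0.35 and −0.038 for replication and 0.23, 0.11 and 0.017 for mitosis, so these 2 stages overlapped in both classes. They also overlapped the dorsal SVZ at day 2, whose mitosis values were −0.069, −0.04 and 0.302.

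In the dorsal SVZ the replication values were −0.078, −0.46 and −0.27 without a lesion, −0.11, −0.012 and 0.31 at day 2 and −0.18, −0.022 and −0.07 at day 7, with overlap between each pair of stages. The mitosis values were −0.43, −0.47 and −0.50 without a lesion and −0.38, −0.18 and −0.39 at day 7, so at day 2 all 3 arrays lay above the other 6. The parenchyma gave replication values of −0.50 and −0.55 without a lesion, −0.28, −0.45 and −0.16 at day 2 and −0.56, −0.68 and −0.37 at day 7. Its mitosis values were −0.42 and −0.52 without a lesion, −0.31, −0.10 and 0.14 at day 2 and −0.62, −0.63 and −0.43 at day 7. Both classes were thus lower in the parenchyma than in the medial zone at every stage, and the parenchyma at day 2 lay above its own unlesioned arrays in each class.

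**Figure D1:**
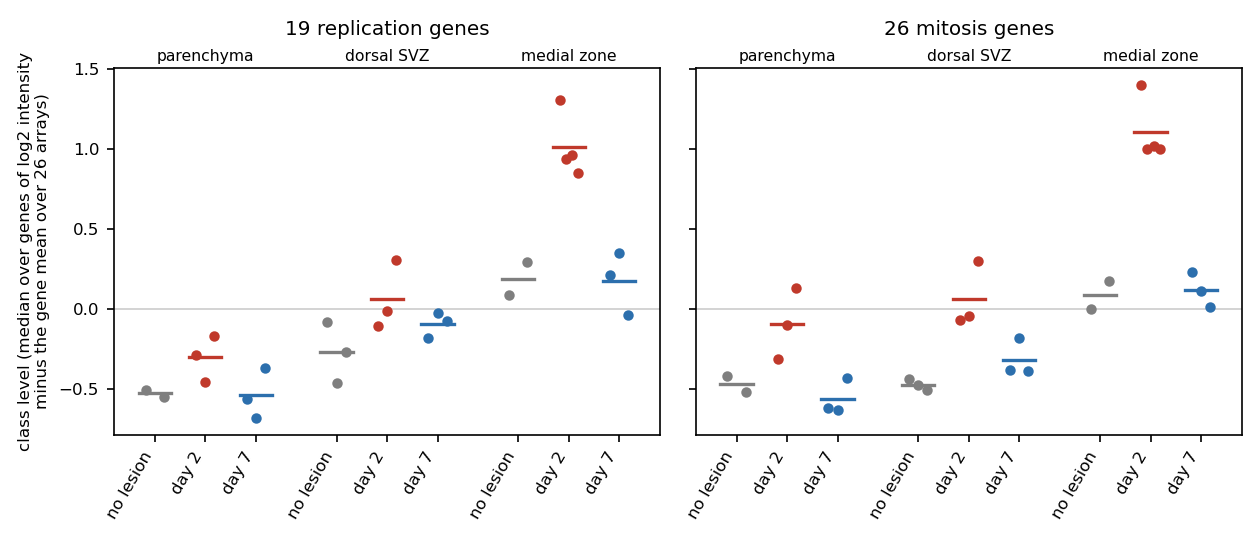
Median deviation (log2) of the 19 replication genes and the 26 mitosis genes from each gene's mean over 26 arrays, by region and stage; each point is 1 array and the bar is the group mean. The 4 medial zone arrays of day 2 lie between 0.85 and 1.31 for replication and between 1.002 and 1.404 for mitosis, above all other arrays.

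Gene by gene the top group was mostly shared, and the lowest group varied. The highest of the 9 group means was the medial zone at day 2 for 18 of the 19 replication genes and for 24 of the 26 mitosis genes. The exceptions were gmnn and birc5a, whose highest mean was in the unlesioned medial zone, and bub1, whose highest mean was in the parenchyma at day 2. The lowest mean fell in the parenchyma at day 7 for 8 replication genes and 14 mitosis genes, in the unlesioned parenchyma for 7 and 4, and in the unlesioned dorsal SVZ for 2 and 7. The span from the lowest to the highest group mean was widest for MKI67 (4.04), the gene of the proliferation antigen Ki-67, then tyms (3.81) and nusap1 (3.80), and narrowest for mcm10 (0.49), one of the dim members.

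**Figure D2:**
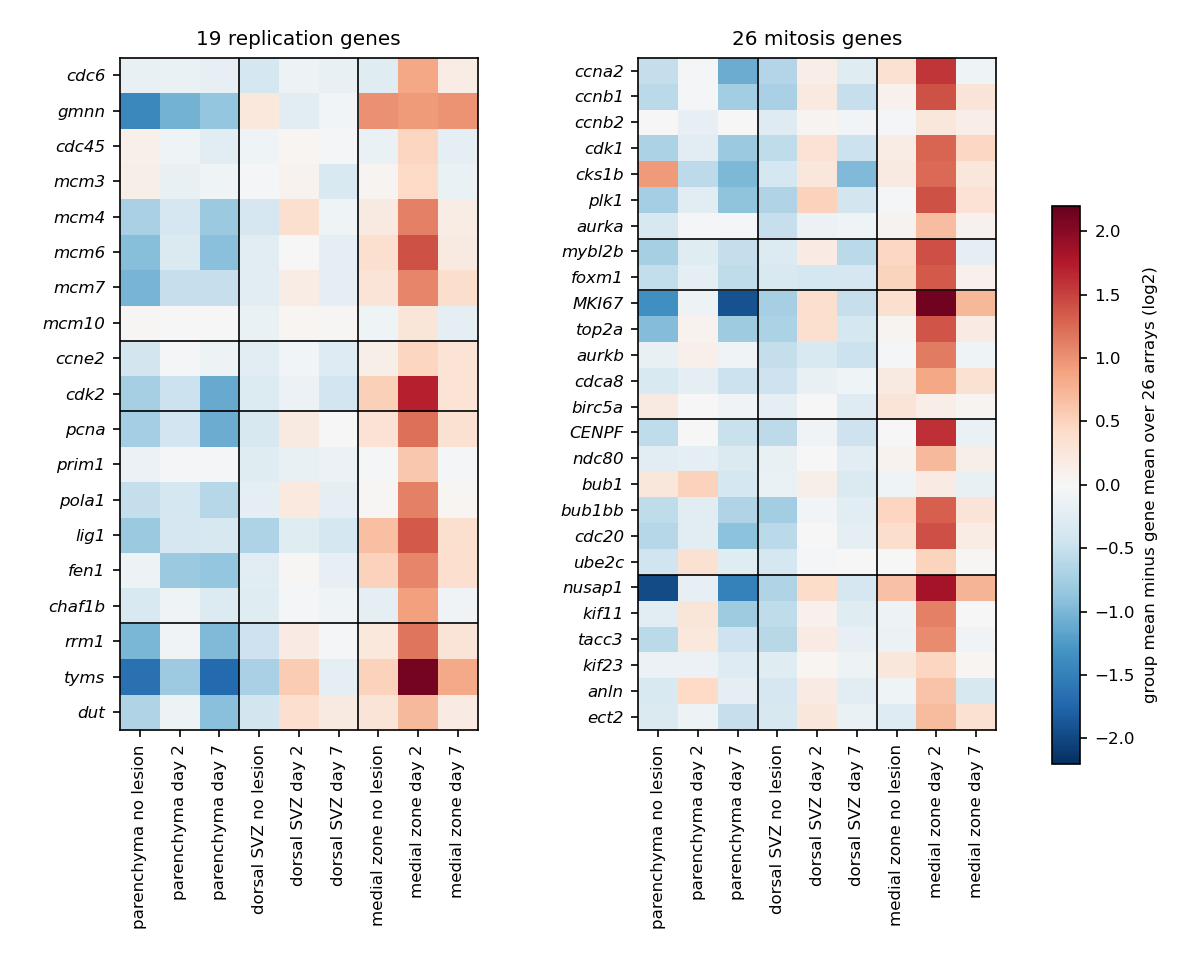
Group mean minus gene mean (log2, colour scale from −2.2 to 2.2) of each of the 45 genes in the 9 groups, replication genes on the left and mitosis genes on the right. The column of the medial zone at day 2 holds the highest value in 18 of 19 replication rows and 24 of 26 mitosis rows.

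The comparison of wounded with uninjured tissue gave its clearest result for these genes in the medial zone at day 2. There 8 members rose, 2 of replication (pola1 and cdc6) and 6 of mitosis (top2a, MKI67, kif11, CENPF, plk1 and tacc3), and none fell. All genes together gave 0.379% called higher, against 8 of these 45. The median log2 difference was 0.79 over the 19 replication genes and 1.013 over the 26 mitosis genes, against −0.006 over all genes. With an unadjusted p under 0.05, 13 replication genes and 20 mitosis genes were higher and none was lower, beside 4.19% of all genes. All 4 day 2 arrays lay above both unlesioned arrays for 13 replication genes and 19 mitosis genes, and for 1598 of the 19260 genes. They lay below both for 0 members and for 1598 of all genes. The count of calls rests on the 2 unlesioned arrays: 2 members were called without the first and 0 without the second, where 4 and 5 were called without the first and the third day 2 array. Fitted without the other regions, 4 were called.

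The proliferation antigen MKI67 (probe set 12989951) had the largest rise of the called members in the medial zone. MKI67 was at 5.57 and 5.07 without a lesion, 7.58, 6.98, 7.04 and 6.79 at day 2 and 5.66, 5.92 and 5.504 at day 7. All 4 arrays of day 2 lay above both unlesioned arrays and all 3 arrays of day 7. The log2 difference from no lesion was 1.78 (SE 0.33, adjusted p = 0.0132), a 3.43-fold rise. top2a (probe set 12983652), topoisomerase II alpha, which untangles sister chromosomes, was at 4.95 and 5.28 without a lesion, 6.7, 6.11, 6.57 and 6.35 at day 2 and 5.31, 5.37 and 5.04 at day 7. It rose by 1.32 (SE 0.24, adjusted p = 0.00869), and again no day 2 array overlapped another stage. CENPF, a kinetochore protein that builds up in G2, was at 3.66 and 3.25 without a lesion, 6.08, 5.03, 4.46 and 4.69 at day 2 and 3.83, 3.196 and 2.93 at day 7. The lower of its unlesioned arrays lay near the table median, and its rise was 1.61 (SE 0.33, adjusted p = 0.022).

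The other called mitosis genes of the medial zone act on the spindle or drive mitosis. kif11, the kinesin that pushes the spindle poles apart, was at 4.204 and 4.25 without a lesion, 4.88, 5.86, 5.54 and 5.51 at day 2 and 4.46, 4.57 and 3.98 at day 7. tacc3, a spindle microtubule protein, was at 4.45 and 4.66 without a lesion, 6.31, 5.28, 5.78 and 5.5 at day 2 and 4.74, 4.81 and 4.26 at day 7. plk1, the polo kinase of mitotic entry, was at 4.096 and 4.61 without a lesion, 5.73, 5.49, 6.08 and 5.799 at day 2 and 5.05, 4.61 and 4.42 at day 7. In all 3 the 4 arrays of day 2 lay above the unlesioned arrays and the day 7 arrays. The rises were 1.22 (SE 0.24, adjusted p = 0.0208) for kif11, 1.17 (SE 0.25, adjusted p = 0.0389) for tacc3 and 1.42 (SE 0.31, adjusted p = 0.0367) for plk1. nusap1 (probe set 13004497), which bundles spindle microtubules, was already at 6.31 and 5.94 without a lesion, with 7.58, 7.32, 6.76 and 7.59 at day 2 and 5.92, 6.66 and 6.08 at day 7. Its difference at day 2 was 1.19 (SE 0.31, adjusted p = 0.106), which was not called although the day 2 arrays were all the higher.

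The cyclin genes ccnb1 and ccna2 and the kinase gene cdk1 had differences of similar size without a call, while cyclin B2, ccnb2, differed by 0.28. The values of the first 3 follow. ccnb1, cyclin B1, was at 5.34 and 4.43 without a lesion, 6.42, 6.07, 6.89 and 5.35 at day 2 and 5.29, 5.11 and 4.84 at day 7. cdk1, the kinase that cyclin B1 activates, was at 3.33 and 3.72 without a lesion, 4.98, 4.05, 4.85 and 4.67 at day 2 and 3.53, 3.99 and 3.93 at day 7. ccna2, cyclin A2, used in S phase and G2, was at 4.04 and 4.03 without a lesion, 5.5, 5.37, 5.26 and 4.96 at day 2 and 3.98, 4.16 and 2.66 at day 7. Each had all day 2 arrays above both other stages, for ccnb1 only just above the higher unlesioned array (5.346 against 5.344). The log2 differences from no lesion were 1.297 (SE 0.31, adjusted p = 0.0672) for ccnb1, 1.11 (SE 0.29, adjusted p = 0.0993) for cdk1 and 1.24 (SE 0.41, adjusted p = 0.267) for ccna2. aurkb, aurora kinase B of the chromosomal passenger complex, was at 4.15 and 4.19 without a lesion, 6.27, 5.07, 4.61 and 5.48 at day 2 and 4.37, 3.81 and 4.15 at day 7. bub1bb, the spindle checkpoint kinase BubR1, was at 4.48 and 4.59 without a lesion, 5.96, 5.19, 4.599 and 5.74 at day 2 and 4.67, 4.35 and 4.01 at day 7. The differences of these 2 genes were 1.19 (SE 0.304, adjusted p = 0.0986) and 0.84 (SE 0.296, adjusted p = 0.334). For bub1bb the day 2 and day 7 arrays overlapped.

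The transcription factors of the mitotic programme gave 0.85 for foxm1 (adjusted p = 0.352) and 0.96 for mybl2b (adjusted p = 0.107). foxm1, a forkhead factor that switches on G2 genes, was at 3.41 and 4.19 without a lesion, 5.298, 5.24, 4.01 and 4.08 at day 2 and 3.61, 3.42 and 3.197 at day 7. mybl2b, which encodes a B-Myb protein, was at 3.64 and 4.19 without a lesion, 5.33, 4.86, 5.05 and 4.27 at day 2 and 3.101, 3.54 and 3.15 at day 7. All day 2 arrays of mybl2b were above both other stages, while for foxm1 the unlesioned and day 2 arrays overlapped.

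**Figure D3:**
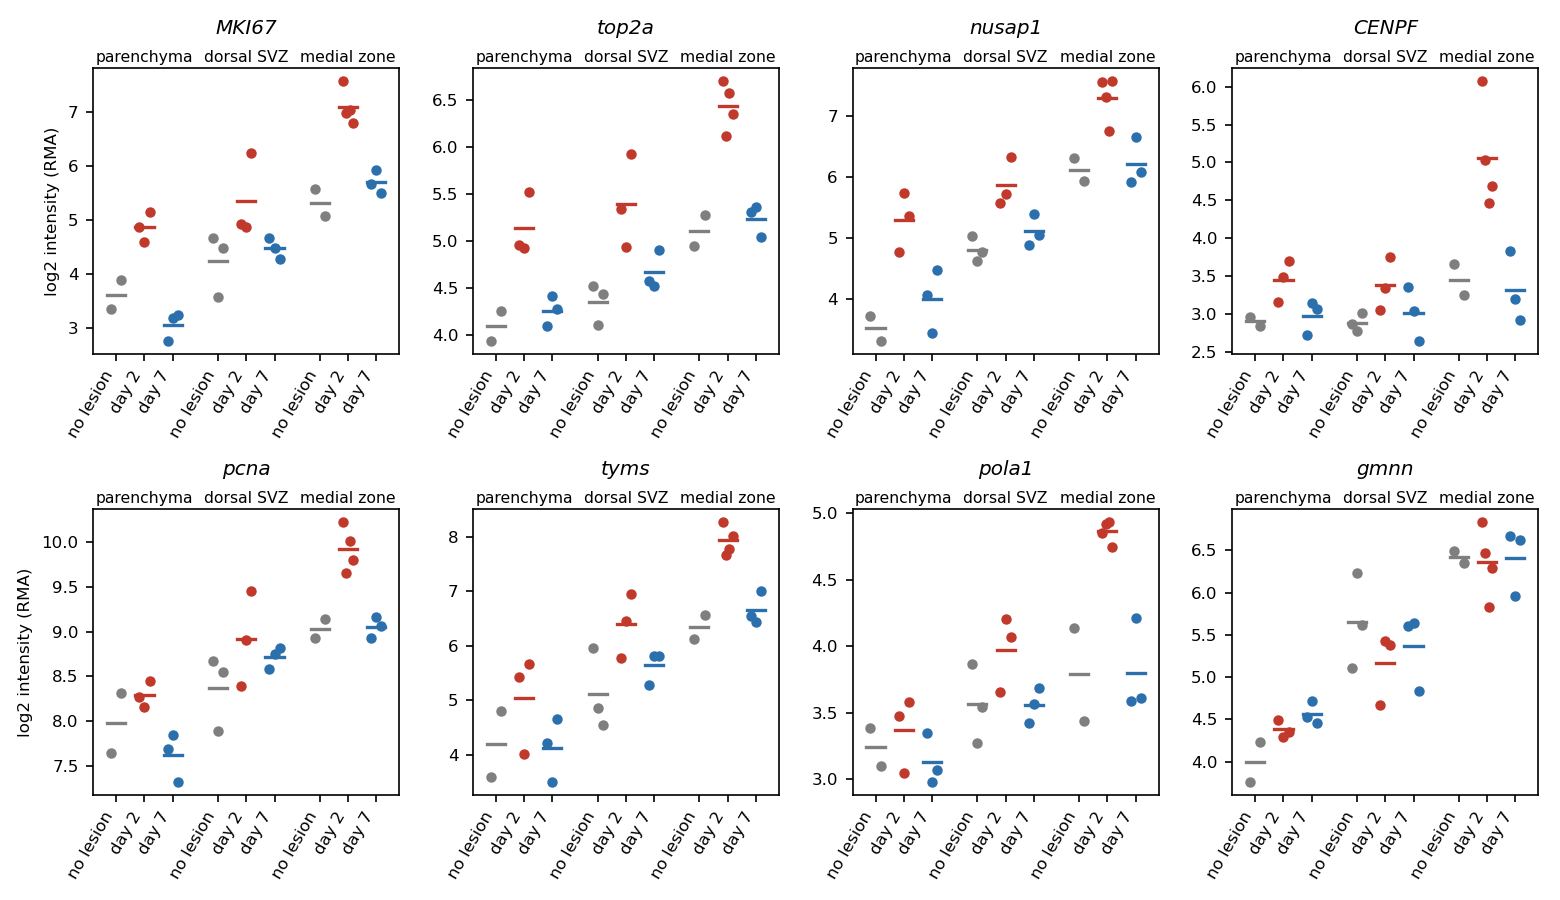
Log2 intensity in each array of MKI67, top2a, nusap1 and CENPF (mitosis) and of pcna, tyms, pola1 and gmnn (replication), by region and stage. In the medial zone the 4 day 2 arrays of MKI67 lie above its arrays of no lesion and of day 7, while gmnn overlaps between the 3 stages.

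Among the replication genes of the medial zone, pola1, the catalytic subunit of polymerase alpha, and cdc6, which loads the MCM helicase, rose. pola1 was at 4.14 and 3.44 without a lesion, 4.85, 4.92, 4.94 and 4.75 at day 2 and 3.59, 4.21 and 3.61 at day 7. cdc6 was at 3.02 and 3.76 without a lesion, 5.05, 4.01, 4.59 and 4.35 at day 2 and 4.03, 3.97 and 3.46 at day 7. The rises were 1.08 (SE 0.23, adjusted p = 0.0323) for pola1, a 2.11-fold change, and 1.11 (SE 0.25, adjusted p = 0.0445) for cdc6. Under 10 alternative fits the pola1 call was kept in 7 and the cdc6 call in 5. In limma the cdc6 call was lost after a new quantile normalization (0.97, adjusted p = 0.0922). It was also lost after subtraction of the array median (1.075, adjusted p = 0.057). For cdc6 the lowest day 2 array overlapped the day 7 arrays, and for pola1 no stage overlapped day 2. chaf1b, a subunit of the chaperone that puts histones on new DNA, followed with a difference of 1.104 (SE 0.26, adjusted p = 0.0597), and prim1, the primase that lays the first RNA, with 0.62 (SE 0.16, adjusted p = 0.113). prim1 was at 2.84 and 3.22 without a lesion, 3.56, 3.45, 4.01 and 3.56 at day 2 and 2.82, 2.96 and 3.22 at day 7. The unlesioned and day 7 values of prim1 lay around the table median of 3.09.

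The replication clamp pcna had no call. pcna was at 8.92 and 9.14 without a lesion, 10.23, 9.65, 10.02 and 9.802 at day 2 and 8.93, 9.16 and 9.07 at day 7. Its difference at day 2 was 0.89 (SE 0.26, adjusted p = 0.161), with all 4 day 2 arrays above the other stages. mcm6, a helicase subunit, was at 4.47 and 5.16 without a lesion, 6.27, 5.71, 6.22 and 5.25 at day 2 and 4.86, 4.85 and 4.27 at day 7. mcm7, another helicase subunit, was at 5.51 and 4.97 without a lesion, 6.26, 6.38, 5.67 and 5.795 at day 2 and 5.34, 5.304 and 5.39 at day 7. In both, the day 2 arrays were all the higher, with differences of 1.05 (SE 0.296, adjusted p = 0.146) and 0.79 (SE 0.26, adjusted p = 0.258). lig1, DNA ligase I, was at 4.73 and 4.93 without a lesion, 5.74, 5.401, 5.58 and 5.34 at day 2 and 4.63, 4.52 and 4.41 at day 7. Its difference was 0.69 (SE 0.23, adjusted p = 0.264), and its day 7 arrays lay below the unlesioned ones, as in 1819 of the 19260 genes.

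Nucleotide supply genes had differences from 0.44 to 1.59 in the medial zone at day 2, all 3 above 0 and none called. tyms, thymidylate synthase, was at 6.13 and 6.57 without a lesion, 8.28, 7.68, 7.77 and 8.03 at day 2 and 6.55, 6.44 and 7.001 at day 7. rrm1, the large subunit of ribonucleotide reductase, was at 5.69 and 6.14 without a lesion, 6.97, 6.76, 7.004 and 6.69 at day 2 and 6.001, 6.25 and 5.64 at day 7. The tyms difference was 1.59 (SE 0.44, adjusted p = 0.136) and the rrm1 difference was 0.94 (SE 0.25, adjusted p = 0.116), with no overlap between day 2 and the other stages in either. cdk2, the kinase of S phase entry, was at 4.41 and 4.78 without a lesion, 6.33, 5.76, 5.34 and 5.704 at day 2 and 4.59, 4.76 and 3.77 at day 7. ccne2, cyclin E2, a partner of cdk2, was at 3.63 and 3.97 without a lesion, 4.58, 4.01, 3.89 and 4.14 at day 2 and 3.73, 3.903 and 4.27 at day 7. For cdk2 the day 2 arrays were all the higher, by 1.19 (SE 0.35, adjusted p = 0.19), while ccne2 overlapped between stages and differed by 0.36 (SE 0.22, adjusted p = 0.731).

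The licensing inhibitor geminin, gmnn, had no higher mean after the wound in the medial zone. gmnn was at 6.49 and 6.35 without a lesion, 6.84, 6.46, 5.83 and 6.297 at day 2 and 6.67, 5.96 and 6.62 at day 7. The stages overlapped, and the difference at day 2 was −0.066 (SE 0.31, adjusted p = 0.993). The remaining members of the medial zone included birc5a, survivin, with a difference of −0.14, the other member with a value under 0.

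In the dorsal SVZ at day 2, top2a was the 1 member that rose, of 19 replication and 26 mitosis genes, beside 0.182% of all genes called higher. The median difference was 0.27 over the replication genes and 0.57 over the mitosis genes, against 0.017 over all genes. At an unadjusted p under 0.05, 5 replication genes and 11 mitosis genes were higher and none was lower, beside 4.17% of all genes. top2a was at 4.53, 4.11 and 4.44 without a lesion, 5.34, 4.94 and 5.92 at day 2 and 4.57, 4.53 and 4.91 at day 7. All day 2 arrays of top2a lay above the other stages, narrowly so against day 7 (4.935 against 4.905). The day 7 and unlesioned arrays met (4.526 against 4.525). The rise of top2a was 1.04 (SE 0.22, adjusted p = 0.0439), 2.06-fold. No member was called when the arrays were scaled again, when the dorsal SVZ was fitted alone, or when any 1 array of the comparison except the second of day 2 was left out.

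The mitosis genes next in order in the dorsal SVZ were plk1, with a difference of 1.17 (SE 0.29, adjusted p = 0.128), nusap1 with 1.07 (SE 0.29, adjusted p = 0.203) and MKI67 with 1.11 (SE 0.31, adjusted p = 0.229). plk1 was at 3.64, 3.72 and 3.78 without a lesion, 4.32, 4.68 and 5.65 at day 2 and 3.91, 3.98 and 4.004 at day 7. nusap1 was at 5.03, 4.63 and 4.76 without a lesion, 5.57, 5.72 and 6.34 at day 2 and 4.89, 5.39 and 5.05 at day 7. MKI67 was at 4.66, 3.57 and 4.48 without a lesion, 4.92, 4.87 and 6.25 at day 2 and 4.67, 4.48 and 4.27 at day 7. In each the 3 day 2 arrays lay above the unlesioned arrays and above the day 7 arrays. cdk1 was at 2.69, 2.74 and 2.95 without a lesion, 3.56, 3.41 and 4.07 at day 2 and 2.85, 3.28 and 2.53 at day 7. ccnb1 was at 4.29, 3.88 and 4.09 without a lesion, 5.17, 4.62 and 5.24 at day 2 and 4.2, 4.63 and 4.01 at day 7. mybl2b was at 3.42, 3.11 and 2.95 without a lesion, 3.45, 3.68 and 3.78 at day 2 and 2.93, 2.99 and 2.71 at day 7. For these 3 genes day 2 lay above no lesion as well, with differences of 0.88 for cdk1 (adjusted p = 0.3), 0.92 for ccnb1 (adjusted p = 0.354) and 0.48 for mybl2b (adjusted p = 0.744).

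The other mitosis genes printed for every array were not called in the dorsal SVZ either. tacc3 was at 4.21, 4.09 and 3.87 without a lesion, 4.88, 4.69 and 4.98 at day 2 and 4.497, 4.58 and 4.38 at day 7. kif11 was at 3.68, 3.81 and 3.82 without a lesion, 3.98, 4.796 and 4.52 at day 2 and 3.94, 4.37 and 3.89 at day 7. CENPF was at 2.87, 2.78 and 3.01 without a lesion, 3.05, 3.35 and 3.75 at day 2 and 3.35, 3.03 and 2.65 at day 7. The day 2 arrays of the 3 genes lay above their unlesioned arrays. bub1bb was at 3.46, 3.23 and 3.195 without a lesion, 3.86, 3.76 and 4.36 at day 2 and 3.69, 3.799 and 3.98 at day 7. Its day 2 arrays did too, by an average of 0.697. ccna2 was at 3.16, 2.48 and 3.498 without a lesion, 3.14, 3.82 and 4.56 at day 2 and 3.04, 3.79 and 3.46 at day 7. aurkb was at 3.78, 3.43 and 3.82 without a lesion, 3.54, 4.02 and 4.06 at day 2 and 3.72, 4.09 and 3.402 at day 7. foxm1 was at 2.91, 3.02 and 2.96 without a lesion, 2.94, 2.68 and 3.14 at day 2 and 2.51, 3.12 and 3.19 at day 7. These last 3 overlapped between all stages.

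Of the 19 replication genes of the dorsal SVZ, mcm4 and dut had all day 2 arrays above all unlesioned arrays, beside 7.96% of all genes, and the others overlapped between these stages. The smallest p-values belonged to tyms, with a difference of 1.28 (SE 0.42, adjusted p = 0.37), mcm4, a helicase subunit, with 0.72 (SE 0.25, adjusted p = 0.413), rrm1 with 0.64 (SE 0.24, adjusted p = 0.496) and dut, the enzyme that keeps uracil out of DNA, with 0.77 (SE 0.297, adjusted p = 0.54). All 3 nucleotide supply genes were above 0 (0.64 to 1.28). tyms was at 5.96, 4.85 and 4.55 without a lesion, 5.77, 6.45 and 6.96 at day 2 and 5.28, 5.82 and 5.82 at day 7. rrm1 was at 5.62, 4.64 and 5.44 without a lesion, 5.88, 5.61 and 6.11 at day 2 and 5.501, 5.77 and 5.68 at day 7. pcna was at 8.67, 7.89 and 8.55 without a lesion, 8.39, 8.904 and 9.45 at day 2 and 8.58, 8.75 and 8.81 at day 7. The third day 2 array gave the highest value of the 3 stages in each of these. mcm6 was at 4.14, 4.04 and 4.45 without a lesion, 4.77, 4.01 and 4.64 at day 2 and 4.44, 4.17 and 4.17 at day 7. mcm7 was at 4.88, 4.67 and 4.58 without a lesion, 4.703, 5.29 and 5.34 at day 2 and 4.51, 4.67 and 5.09 at day 7. gmnn was at 5.11, 6.24 and 5.62 without a lesion, 4.68, 5.43 and 5.38 at day 2 and 5.61, 5.65 and 4.84 at day 7. These 3 genes overlapped between all stages, and the highest gmnn array was an unlesioned one.

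The arrays of further DNA synthesis and initiation genes in the dorsal SVZ overlapped between stages. The 6 genes of DNA synthesis at the fork, pcna among them, all had day 2 differences above 0. These ran from 0.098 to 0.548 with a median of 0.334, and none was called. pola1 was at 3.87, 3.27 and 3.55 without a lesion, 3.65, 4.202 and 4.07 at day 2 and 3.42, 3.57 and 3.69 at day 7. lig1 was at 3.77, 3.12 and 3.56 without a lesion, 3.46, 3.87 and 4.37 at day 2 and 3.49, 3.99 and 3.86 at day 7. prim1 was at 2.86, 2.74 and 2.75 without a lesion, 2.901, 2.81 and 2.93 at day 2 and 2.88, 2.86 and 2.99 at day 7. No stage of these 3 stood apart. cdc6 was at 3.54, 3.06 and 3.18 without a lesion, 3.45, 3.56 and 3.62 at day 2 and 3.23, 3.58 and 3.67 at day 7. cdk2 was at 4.41, 3.47 and 3.41 without a lesion, 3.33, 4.097 and 4.39 at day 2 and 3.67, 3.98 and 3.28 at day 7. ccne2 was at 3.65, 3.22 and 3.41 without a lesion, 3.43, 3.41 and 4.002 at day 2 and 3.52, 3.47 and 3.19 at day 7. The day 2 differences of these were 0.28, 0.17 and 0.19.

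In the parenchyma at day 2, nusap1 and top2a rose and no member fell, that is 2 mitosis genes and 0 replication genes beside 1.7% of all genes called higher. The median difference was 0.32 over the replication genes and 0.43 over the mitosis genes, against −0.003 over all genes. At an unadjusted p under 0.05, limma gave 1 replication gene and 6 mitosis genes higher, beside 7.24% of all genes. It gave 1 mitosis gene lower, the kinase subunit cks1b, beside 5.31% of all genes. The higher replication genes and the lower members thus did not exceed the shares of all genes. Without the third day 2 array 1 member was called, without the first day 2 array 3, and with the parenchyma fitted alone 0. The top2a call also depended on both unlesioned arrays. With 1 of these left, the top2a difference was 0.879 without the first and 1.192 without the second. Over all genes 83.7% of the calls were higher, 72.2% after a new quantile normalization and 65.2% after subtraction of the array median, which shifted the median of all genes by −0.11, and 2 members rose under each. nusap1 was at 3.71 and 3.31 without a lesion, 4.76, 5.74 and 5.37 at day 2 and 4.06, 3.43 and 4.48 at day 7. All 3 day 2 arrays lay above both unlesioned arrays and all 3 day 7 arrays. The rise was 1.78 (SE 0.33, adjusted p = 0.00211), 3.43-fold. top2a was at 3.94 and 4.26 without a lesion, 4.96, 4.92 and 5.52 at day 2 and 4.1, 4.42 and 4.28 at day 7. Its day 2 arrays were likewise all the higher, with a rise of 1.04 (SE 0.25, adjusted p = 0.0263), 2.05-fold.

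MKI67 and tacc3 followed among the mitosis genes of the parenchyma, with 1.25 (SE 0.35, adjusted p = 0.0682) and 0.83 (SE 0.27, adjusted p = 0.127). MKI67 was at 3.35 and 3.88 without a lesion, 4.87, 4.59 and 5.14 at day 2 and 2.76, 3.18 and 3.23 at day 7. tacc3 was at 4.09 and 4.07 without a lesion, 5.24, 4.57 and 4.93 at day 2 and 3.95, 3.98 and 4.75 at day 7. kif11 was at 3.996 and 4.17 without a lesion, 4.46, 4.58 and 4.74 at day 2 and 3.85, 3.33 and 3.47 at day 7. MKI67 and kif11 had the pattern of separate stages, day 2 the highest and day 7 below the unlesioned arrays. CENPF was at 2.96 and 2.84 without a lesion, 3.16, 3.49 and 3.698 at day 2 and 2.73, 3.14 and 3.07 at day 7. ccnb1 was at 4.27 and 4.12 without a lesion, 4.86, 4.79 and 4.59 at day 2 and 4.36, 3.98 and 3.72 at day 7. foxm1 was at 2.73 and 2.798 without a lesion, 2.94, 3.16 and 3.204 at day 2 and 3.01, 2.78 and 2.45 at day 7. In these the day 2 arrays lay above both unlesioned arrays by averages of 0.55, 0.55 and 0.34.

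The other mitosis genes printed for every array overlapped between no lesion and day 2 in the parenchyma, apart from mybl2b. mybl2b was at 2.83 and 2.65 without a lesion, 3.15, 3.098 and 3.36 at day 2 and 2.75, 2.64 and 3.43 at day 7. cdk1 was at 2.74 and 2.58 without a lesion, 2.43, 3.54 and 3.37 at day 2 and 2.44, 2.43 and 2.75 at day 7. plk1 was at 3.595 and 3.66 without a lesion, 3.32, 4.52 and 4.54 at day 2 and 3.39, 3.48 and 3.59 at day 7. The cdk1 difference was 0.45 (adjusted p = 0.585). ccna2 was at 2.96 and 3.38 without a lesion, 3.002, 3.56 and 4.44 at day 2 and 2.48, 2.403 and 2.95 at day 7. aurkb was at 4.15 and 3.95 without a lesion, 4.29, 4.12 and 4.54 at day 2 and 4.41, 4.06 and 3.897 at day 7. bub1bb was at 3.79 and 3.202 without a lesion, 3.59, 3.61 and 4.202 at day 2 and 3.05, 3.43 and 3.69 at day 7. The ccna2 arrays of day 7 lay below those of both other stages, but only just below the lower unlesioned array (2.953 against 2.956). cks1b gave 6.48 in 1 unlesioned array and 3.53 in the other, so its value at no lesion rests on 1 array.

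The replication genes of the parenchyma had their smallest p-values at day 2 for rrm1, with a difference of 0.94 (SE 0.27, adjusted p = 0.07), mcm6 with 0.62 (SE 0.31, adjusted p = 0.418), the flap nuclease fen1 with −0.71 (SE 0.36, adjusted p = 0.424) and mcm7 with 0.51 (SE 0.27, adjusted p = 0.451). rrm1 was at 4.895 and 4.44 without a lesion, 5.28, 5.71 and 5.83 at day 2 and 4.83, 4.93 and 4.36 at day 7. mcm6 was at 3.602 and 3.43 without a lesion, 3.91, 4.08 and 4.42 at day 2 and 3.33, 3.19 and 4.09 at day 7. mcm7 was at 3.93 and 3.95 without a lesion, 4.01, 4.27 and 5.08 at day 2 and 4.396, 4.42 and 4.53 at day 7. In all 3 the day 2 arrays lay above both unlesioned arrays, and in mcm6 and mcm7 they overlapped day 7. gmnn was at 3.76 and 4.23 without a lesion, 4.495, 4.297 and 4.35 at day 2 and 4.53, 4.72 and 4.46 at day 7. lig1 was at 3.28 and 3.43 without a lesion, 3.93, 3.71 and 3.72 at day 2 and 3.44, 3.92 and 4.08 at day 7. ccne2 was at 3.395 and 3.13 without a lesion, 3.83, 3.63 and 3.42 at day 2 and 3.55, 3.45 and 3.68 at day 7. The arrays of both wounded stages lay above the unlesioned arrays in these 3 genes.

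rrm1, mcm6, mcm7, gmnn, lig1 and ccne2 were thus the 6 replication genes of the parenchyma with all day 2 arrays above the unlesioned ones, beside 12.8% of all genes. In 2 replication genes the arrays separated the other way: fen1 and mcm3 had all day 2 arrays below both unlesioned arrays, beside 12% of all genes. The remaining replication genes of the parenchyma overlapped between no lesion and day 2. tyms was at 3.6 and 4.799 without a lesion, 5.42, 4.02 and 5.68 at day 2 and 4.22, 3.503 and 4.66 at day 7. pcna was at 7.64 and 8.31 without a lesion, 8.27, 8.16 and 8.45 at day 2 and 7.69, 7.84 and 7.32 at day 7. pola1 was at 3.39 and 3.1 without a lesion, 3.48, 3.05 and 3.58 at day 2 and 3.35, 2.98 and 3.07 at day 7. The pcna difference was 0.32 (adjusted p = 0.702). cdc6 was at 3.44 and 3.53 without a lesion, 3.796, 3.399 and 3.32 at day 2 and 3.703, 3.28 and 3.46 at day 7. cdk2 was at 3.16 and 3.53 without a lesion, 4.14, 3.13 and 3.55 at day 2 and 3.34, 2.88 and 2.67 at day 7. prim1 was at 2.98 and 2.85 without a lesion, 3.11, 2.94 and 2.98 at day 2 and 2.89, 2.97 and 3.13 at day 7. All prim1 arrays lay near the table median here, and cdc6 had no stage apart.

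The members not printed array by array were called in no comparison, and their day 2 differences are given in the order parenchyma, dorsal SVZ and medial zone. Of the origin genes, mcm4 had 0.35, 0.72 and 0.92, mcm3 −0.28, 0.13 and 0.39, and mcm10, which starts the unwinding of the origin, −0.012, 0.18 and 0.36. cdc45, a part of the moving helicase, had −0.196, 0.14 and 0.61. mcm3, mcm10 and cdc45 are dim members, and of the 4 mcm4 had the largest difference in each region. Of the genes at the fork, fen1 had −0.71, 0.26 and 0.57 and chaf1b 0.24, 0.23 and 1.104, and dut, of nucleotide supply, had 0.56, 0.77 and 0.44. fen1 was the replication gene with the lowest value in the parenchyma.

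Among the mitosis genes of this kind, cdc20, which activates the ubiquitin ligase that starts anaphase, had 0.401, 0.595 and 1.04 and ube2c, a conjugating enzyme of that ligase, had 0.78, 0.34 and 0.499. The aurora kinase aurka had 0.302, 0.37 and 0.61, cyclin B2, ccnb2, had −0.17, 0.33 and 0.28, and cks1b had −1.51, 0.65 and 1.05. The kinetochore and checkpoint genes ndc80 and bub1 had 0.033, 0.16 and 0.64 and 0.25, 0.27 and 0.27. The passenger complex genes cdca8 and birc5a had 0.14, 0.302 and 0.66 and −0.2, 0.202 and −0.14. The genes of cell cleavage followed, with 0.76, 0.55 and 0.72 for the furrow protein anln, 0.201, 0.597 and 0.98 for ect2 and 0.015, 0.32 and 0.23 for the midzone kinesin kif23. Apart from ccnb2, cks1b and birc5a these were positive in all regions. By role the medians in the medial zone were 1.19 for chromosome and centromere genes, 1.11 for mitotic cyclins and kinases, 1.07 for spindle and cytokinesis genes and 0.74 for kinetochore and checkpoint genes.

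**Figure D4:**
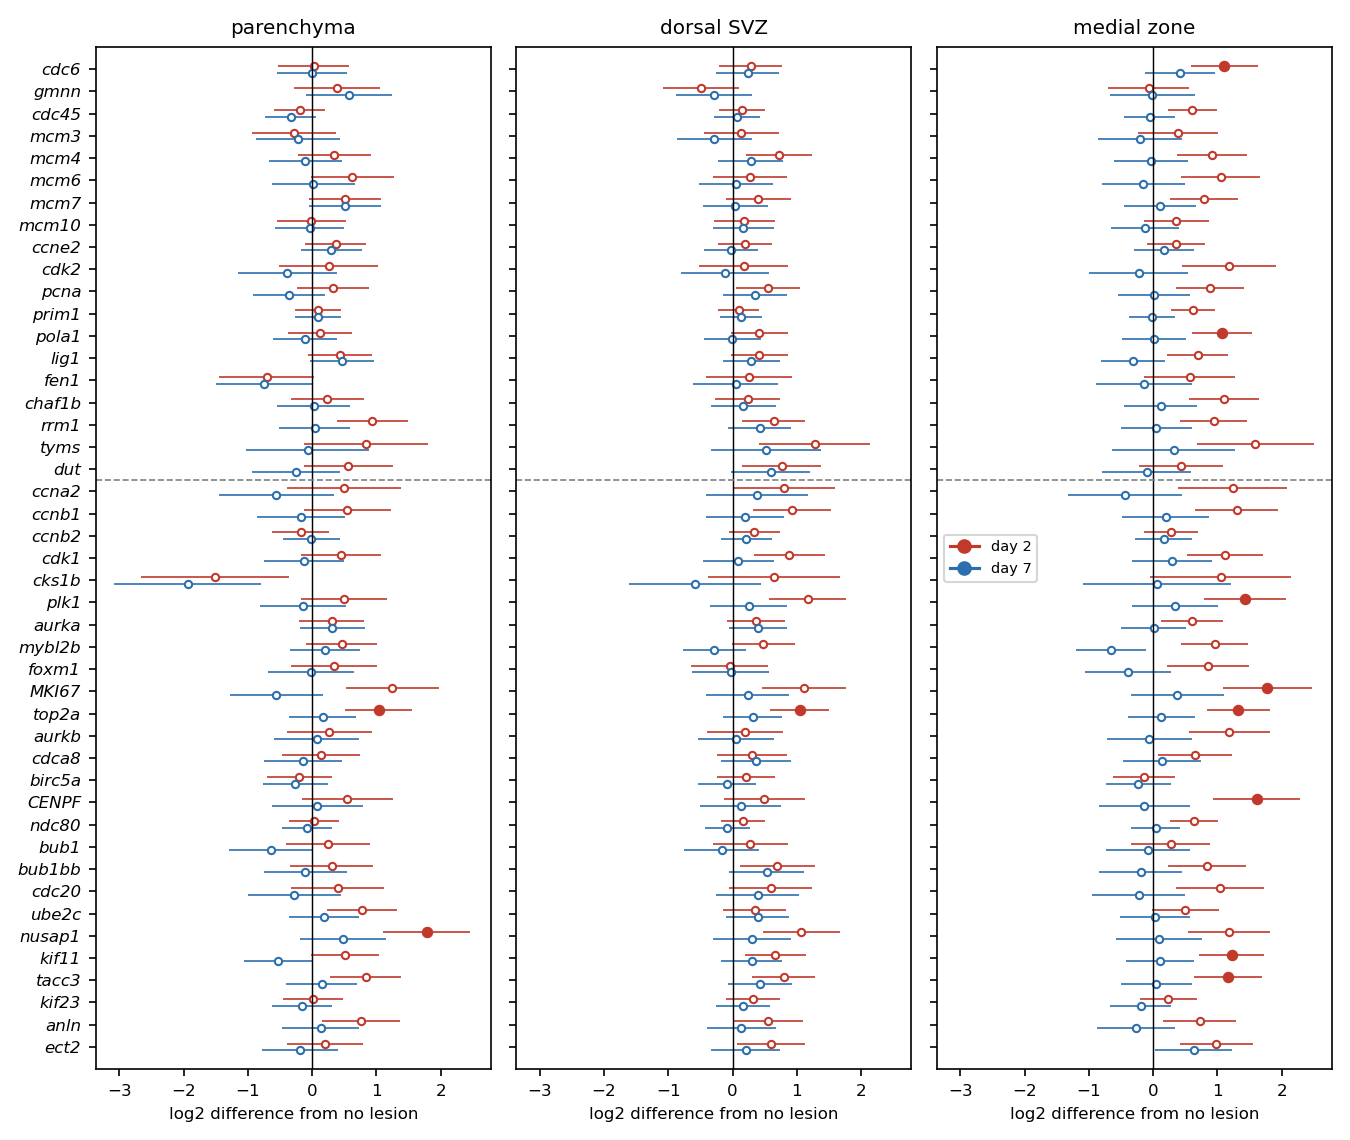
Log2 difference from no lesion at day 2 and at day 7 for each of the 45 genes in the 3 regions, with 95% confidence intervals from limma; filled points are called at adjusted p under 0.05 and the dashed line separates replication genes (above) from mitosis genes (below). Called genes appear at day 2 alone, 8 in the medial zone, 1 in the dorsal SVZ and 2 in the parenchyma.

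Whether the size of the day 2 difference differed between regions was tested as an interaction. No member was called in the 3 comparisons of limma, where 0.0519% of all genes were called for the dorsal SVZ minus the parenchyma, 0% for the medial zone minus the dorsal SVZ and 0.0104% for the medial zone minus the parenchyma. At an unadjusted p under 0.05 the difference was larger in the medial zone than in the dorsal SVZ for 8 members (1.25% of all genes) and than in the parenchyma for 11 members (2.95% of all genes). The dorsal SVZ had the larger difference against the parenchyma for 1 of 45 members, cks1b, which does not exceed the 3.17% of all genes. That cks1b value rests on 1 unlesioned array of the parenchyma, at 6.48 against 3.53 in the other. Without the second unlesioned array of the parenchyma, 1 member was called in each interaction against the parenchyma. For the medial zone minus the parenchyma the calls were 2 genes, 50% of them higher, against 3 genes and 33.3% after quantile normalization and 1 gene, higher, after subtraction of each array's median. The median interaction was 0.34 for replication genes and 0.36 for mitosis genes for the medial zone minus the dorsal SVZ, and 0.57 and 0.52 for the medial zone minus the parenchyma. A larger response of the medial zone was therefore not shown for any single member at the adjusted threshold.

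At day 7 no member differed from no lesion at the adjusted threshold in any region, where limma called 0.125% of all genes in the parenchyma and 0% in both the dorsal SVZ and the medial zone. The class medians were −0.04 (replication) and −0.12 (mitosis) in the parenchyma, 0.13 and 0.21 in the dorsal SVZ, and −0.025 and 0.033 in the medial zone. With no adjustment, at p under 0.05, 3 members were lower in the parenchyma (cks1b, kif11 and fen1, beside 4.7% of all genes lower) and none passed in the dorsal SVZ. For cks1b this rests on 1 unlesioned array of the parenchyma, at 6.48 against 3.53 in the other. In the medial zone mybl2b was lower (−0.65) and ect2, which starts the cleavage furrow, was higher (0.63), beside 2.02% of all genes lower and 2.05% higher, so 1 of 45 members each way was near the share of all genes. Without the second unlesioned array 1 member was called in the parenchyma. The share of its calls over all genes that were higher was 54.2%, 44.7% after quantile normalization and 45.8% after subtraction of the array median. These counts do not show that the levels were equal to those of uninjured tissue: the interval for MKI67 in the medial zone ran from −0.35 to 1.104.

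Between day 2 and day 7, 14 members fell in the medial zone, beside 0.306% of all genes called lower. They were 5 replication genes (cdk2, mcm6, pola1, lig1 and prim1) and 9 mitosis genes (mybl2b, CENPF, top2a, kif11, tacc3, MKI67, aurkb, ccna2 and foxm1), and none rose. The median difference was −0.71 for replication and −1.06 for mitosis, against 0.006 over all genes. Unadjusted p-values under 0.05 marked 38 of the 45 members as lower (16 replication and 22 mitosis genes), beside 4.16% of all genes. The day 2 arrays are the same as in the comparison with no lesion, so the falls and the rises share them. The count was 5 without the first day 2 array, 9 without the third or the fourth, 4, 3 and 1 without the first, the second and the third day 7 array, and 0 with the medial zone fitted alone. The lowest adjusted p belonged to mybl2b, which fell from a mean over 4 arrays to one over 3 arrays by 1.61 (SE 0.22, adjusted p = 0.00141) on the log2 scale. Every day 7 array of mybl2b also lay below the unlesioned arrays, as in 1819 of the 19260 genes.

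CENPF changed by −1.75 (SE 0.29, adjusted p = 0.00809), ccna2 by −1.67 (SE 0.36, adjusted p = 0.0394), cdk2 by −1.41 (SE 0.31, adjusted p = 0.0427) and MKI67 by −1.4 (SE 0.29, adjusted p = 0.0345). The transcription factor foxm1 and the kinase aurkb changed by −1.25 (SE 0.27, adjusted p = 0.0419) and −1.25 (SE 0.27, adjusted p = 0.0394). mcm6 changed by −1.204 (SE 0.26, adjusted p = 0.0412), top2a by −1.196 (SE 0.21, adjusted p = 0.0124), tacc3 by −1.12 (SE 0.22, adjusted p = 0.0257) and kif11 by −1.12 (SE 0.21, adjusted p = 0.0239). Of the genes that make DNA, pola1 changed by −1.06 (SE 0.2, adjusted p = 0.0209), lig1 by −0.999 (SE 0.2, adjusted p = 0.0257) and prim1 by −0.64 (SE 0.15, adjusted p = 0.047). As the values of each array above show, the day 7 arrays of these genes lay below their day 2 arrays. The calls rest on these same arrays. This separation held for 29 of the 45 members and for 828 of the 19260 genes. pcna, cdk1 and ccnb1 had the same separation without a call, with −0.87, −0.82 and −1.101.

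In the parenchyma 3 members fell from day 2 to day 7, all of mitosis, beside 1.03% of all genes called lower. MKI67 changed by −1.81 (SE 0.31, adjusted p = 0.0018), kif11 by −1.04 (SE 0.23, adjusted p = 0.0183) and nusap1 by −1.298 (SE 0.29, adjusted p = 0.0218). The median was −0.14 for replication and −0.52 for mitosis, and 5 replication genes and 13 mitosis genes were lower at an unadjusted p under 0.05, beside 5.71% of all genes. In the parenchyma 1 member was called without the second or the third day 2 array or the second day 7 array, 2 without the first or the third day 7 array, 5 without the first day 2 array and 1 with the region fitted alone. In the dorsal SVZ limma called no member, beside 0.0519% of all genes called in either direction. There 8 mitosis genes and no replication gene were lower at an unadjusted p under 0.05 (2.8% of all genes), and the medians were −0.21 and −0.37.

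The uninjured regions differed in these genes as well. The unlesioned medial zone against the unlesioned parenchyma had 11 members higher and none lower, beside 7.28% of all genes called higher. They were 7 replication genes (gmnn, lig1, mcm7, rrm1, tyms, mcm6 and pcna) and 4 mitosis genes (nusap1, MKI67, mybl2b and top2a). The median difference was 0.91 for replication and 0.50 for mitosis. nusap1 was higher by 2.62 (SE 0.36, adjusted p = 2.37e-05), with medial arrays at 6.31 and 5.94 and parenchymal arrays at 3.71 and 3.31. gmnn was higher by 2.43 (SE 0.35, adjusted p = 5.2e-05), with 6.49 and 6.35 against 3.76 and 4.23. tyms was higher by 2.15 (SE 0.51, adjusted p = 0.00707), a 4.43-fold difference. No array of one region overlapped the other in these 3 genes. With 2 arrays a region, the medial arrays were likewise all the higher in 5292 of the 19260 genes.

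MKI67 was higher by 1.7 (SE 0.38, adjusted p = 0.00486) in the unlesioned medial zone than in the unlesioned parenchyma, lig1 by 1.47 (SE 0.26, adjusted p = 0.000502), mcm7 by 1.303 (SE 0.297, adjusted p = 0.00523) and mcm6 by 1.295 (SE 0.34, adjusted p = 0.0157). rrm1 was higher by 1.25 (SE 0.29, adjusted p = 0.00612), mybl2b by 1.18 (SE 0.29, adjusted p = 0.00982), pcna by 1.06 (SE 0.296, adjusted p = 0.023) and top2a by 1.011 (SE 0.27, adjusted p = 0.0186). At an unadjusted p under 0.05, 20 members were higher, beside 14.6% of all genes. This contrast depends on how the arrays are scaled: subtracting each array's median shifted the median of all genes by −0.25 and took the share of calls that were higher from 69.1% to 28.7% (51.7% after a new quantile normalization). The member calls stayed on the higher side under these scalings, 10 after quantile normalization and 9 after subtraction of the median. Without the second unlesioned medial array 5 were called, and 6 without the first parenchymal one.

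The unlesioned dorsal SVZ against the unlesioned parenchyma had gmnn higher by 1.66 (SE 0.32, adjusted p = 0.0017) and nusap1 by 1.297 (SE 0.33, adjusted p = 0.015), beside 4.89% of all genes. Here the median was 0.27 for replication and −0.044 for mitosis, and 5 members were higher at an unadjusted p under 0.05 (11.4% of all genes), so the share of members was near that of all genes. The share of calls that were higher went from 73% to 57.7% after quantile normalization and to 37.9% after subtraction of the median, which shifted all genes by −0.19. Leaving out the first unlesioned array of the dorsal SVZ left 1 member called. Both calls also depended on the parenchymal arrays. With 1 of these left, the gmnn difference was 1.423 without the first, and the nusap1 difference was 1.093 without the second. The unlesioned medial zone against the unlesioned dorsal SVZ had lig1 higher by 1.34 (SE 0.24, adjusted p = 0.00101), nusap1 by 1.32 (SE 0.33, adjusted p = 0.018) and bub1bb by 1.24 (SE 0.31, adjusted p = 0.0209), beside 2.37% of all genes. The share of calls that were higher was 57%, 51.7% after quantile normalization and 46.2% after subtraction of the median. The medians were 0.57 and 0.58, and 19 members were higher at an unadjusted p under 0.05, beside 8.54% of all genes. Leaving out either medial array or the second or the third array of the dorsal SVZ left 1 call. The members called between unlesioned regions thus included gmnn, lig1, mcm6, mcm7, rrm1, tyms, pcna, mybl2b and bub1bb. None of these was called against no lesion in any region, but lig1, mcm6 and mybl2b fell from day 2 to day 7 in the medial zone. The other members called between unlesioned regions, nusap1, MKI67 and top2a, were also called against no lesion at day 2. There nusap1 rose in the parenchyma, MKI67 in the medial zone and top2a in every region.

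Other genes of the same machinery were read from 5 further lists. At day 2 the shares of all genes called higher were 1.7% in the parenchyma, 0.182% in the dorsal SVZ and 0.379% in the medial zone, and at an unadjusted p under 0.05 they were 7.24%, 4.17% and 4.19%. Of 54 measured further replication genes, 5 rose in the medial zone at day 2, among them cdca7a (1.21), pola2 (1.05), gins2 (1.13) and slbp (1.06), which act in chromatin remodelling, priming, helicase activation and histone mRNA. None was called in the dorsal SVZ or the parenchyma, where 6 and 2 of the 54 were higher at an unadjusted p under 0.05, in the parenchyma a smaller share than that of all genes. Of 75 further mitosis genes, 6 rose in the medial zone, among them the condensin subunit ncapg (1.43, adjusted p = 0.000506), the kinesins kif20a (1.35) and kif2c (1.96), and hmmr (1.14). In the parenchyma 6 rose, among them kif2c (1.88), the import receptor kpna2 (1.64), the phosphatase cdc25b (1.66) and cdca3 (1.199), and in the dorsal SVZ limma called none, with 15 higher at an unadjusted p under 0.05. The medians of the further replication genes were 0.14, 0.27 and 0.41 in the parenchyma, the dorsal SVZ and the medial zone, and those of the further mitosis genes were 0.23, 0.21 and 0.57.

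The lists that sit upstream of S phase had medians nearer those of all genes. None of 17 G1 cyclins and kinases was called at day 2 in any region by limma (2, 0 and 3 higher at an unadjusted p under 0.05 in the parenchyma, the dorsal SVZ and the medial zone), nor was any of 19 E2F and Rb factors (0, 2 and 2). Their medians ran from 0.036 to 0.14 and from −0.094 to 0.16. Of 28 genes that brake the cycle, the stress gene sesn3 rose in the parenchyma (0.99), and the medians were 0.13, 0.005 and −0.065. From day 2 to day 7 in the medial zone, 6 further replication genes fell, among them hells (−1.15), wdhd1 (−1.27), orc2 (−1.51) and dnmt1 (−0.88), and 13 further mitosis genes fell, among them cenpk (−1.44), ncapg (−1.07), hmmr (−1) and ncapd2 (−1.04), beside 0.306% of all genes. In the parenchyma 4 further mitosis genes fell over this interval, cdc25b (−1.83), kif2c (−1.75), kpna2 (−1.50) and ttk (−0.95), beside 1.03% of all genes. At day 7 against no lesion the cohesin subunit smc1a was higher in the parenchyma (1.77), the 1 call of these 5 lists in the 3 comparisons of day 7 (0.125% of all genes were called in that region).

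**Figure D5:**
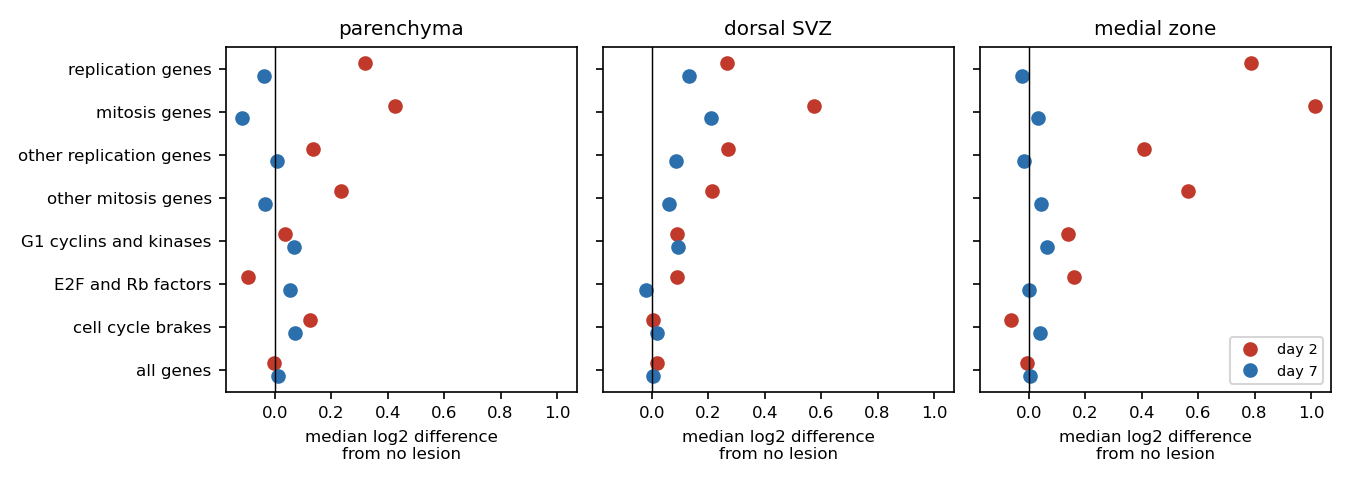
Median log2 difference from no lesion of the replication genes, the mitosis genes and 5 further cell cycle lists, in each region at day 2 and day 7. The medial zone at day 2 has the highest medians for replication (0.79) and mitosis (1.013), and the G1, E2F and brake lists stay between −0.094 and 0.16 at day 2.

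Without a lesion the further replication and mitosis lists had calls above the 7.28% of all genes in the medial zone against the parenchyma, and not in the dorsal SVZ against the parenchyma. The medial zone exceeded the parenchyma in 10 of 54 further replication genes, led by hells (1.70), rpa2 (1.89), pole3 (1.198) and dnmt1 (0.93), and in 12 of 75 further mitosis genes, led by smc1a (2.74), hmgb2b (1.75), lmnb2 (1.62) and stmn1a (2.58). ccnd1, cyclin D1, was higher by 1.73 and the E2F partner tfdp2 by 1.78, with e2f5 (0.72), rbl1 (0.66) and the inhibitor cdkn1ba (0.88) also higher. These were 1 of 17 G1 genes, 3 of 19 E2F and Rb factors and 1 of 28 brakes, so the G1 and brake shares did not exceed that of all genes. In the dorsal SVZ against the parenchyma ccnd1 (1.16), mycn (0.82), tfdp2 (1.03), sesn3 (1.06), hmgb2b (0.93) and lmnb2 (0.85) were higher and the kinetochore gene nuf2 was lower (−1.35). Here 0 of 54 further replication genes and 2 of 75 further mitosis genes were called higher, beside 4.89% of all genes, where 3 and 7 were higher at an unadjusted p under 0.05 (11.4% of all genes). In the medial zone against the dorsal SVZ, pole2 (0.91), hells (0.94), e2f5 (0.73) and 6 further mitosis genes were higher, led by smc1a (1.96), kif2c (1.39), plk4 (0.83) and kpna2 (1.34), beside 2.37% of all genes.

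Markers of other cells moved with the same stages. Of 22 microglia and macrophage genes, 18 rose in the parenchyma at day 2 and 9 in each of the dorsal SVZ and the medial zone. The shares of all genes called higher there were 1.7%, 0.182% and 0.379%. The medians of the 22 genes were 2.37, 1.28 and 1.33, and mpeg1.1 went from 4.47 to 8.61 in the parenchyma. Their summed level in the parenchyma was 10.8 to 10.9 without a lesion, 13.1 to 13.7 at day 2 and 11.2 to 12.3 at day 7. In the dorsal SVZ it was 10.8 to 11.2, 12.01 to 12.6 and 11.4 to 11.7, and in the medial zone 10.6 to 10.9, 12.1 to 12.4 and 11.4 to 11.8. The microglial sum was thus highest in the parenchyma at day 2, and its ranges overlapped between the regions without a lesion and at day 7. What part dividing microglia have in the members' values was not tested.

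Limma called none of 20 radial glia genes at day 2 in any region (1 higher in each region at an unadjusted p under 0.05, and 1, 1 and 2 lower, beside 5.31%, 2.62% and 4.2% of all genes lower in the parenchyma, the dorsal SVZ and the medial zone), and their summed level stayed between 12.3 and 12.7 in the parenchyma and between 13.7 and 14.01 in the dorsal SVZ and the medial zone at the unlesioned stage and day 2. Against the unlesioned parenchyma, 13 of them were higher and 1 lower in the unlesioned dorsal SVZ, and 12 were higher in the unlesioned medial zone, beside 4.89% and 7.28% of all genes higher. Of 28 genes of neural progenitors and newborn neurons, 16 were higher and 1 was lower in the unlesioned medial zone than in the unlesioned parenchyma, with sums of 13.6 against 12.4 to 12.5. At day 2, 3 of the 28 rose in the parenchyma and none in the dorsal SVZ or the medial zone (1 and 2 higher and 3 and 3 lower at an unadjusted p under 0.05). The shares of all genes called higher at day 2 were 1.7% in the parenchyma, 0.182% in the dorsal SVZ and 0.379% in the medial zone. The part of these cell types in the regional differences of the members was not tested. Of the other marker lists at day 2, neutrophils had 1 of 9 genes called higher, in the parenchyma, and ciliated ependyma 1 of 11, in the medial zone. Endothelial and mural cells had 1 of 22 genes called higher in each region and 1 called lower in the parenchyma. Lymphocytes (12 genes), erythrocytes (6), mature neurons (23) and the oligodendrocyte lineage (17) had none, with at most 3 genes of a list and region past an unadjusted p under 0.05 and medians between −0.39 and 0.64. The lowest median was that of mature neurons in the medial zone, with 3 genes lower and 0 higher at that threshold. Their summed level there was 12.79 to 13.235 without a lesion, 12.46 to 12.72 at day 2 and 12.97 to 13.02 at day 7. What this lower neuronal level has to do with the members' values was not tested.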

How the data were processed

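RNA was extracted with a column kit, amplified from small amounts with a whole transcriptome kit, labelled with biotin and hybridised to Affymetrix arrays, per the labels' protocols. The authors deposited 1 log2 intensity per probe set and array, produced by RMA in Affymetrix Expression Console 1.2 per the submitters' processing notes. RMA corrects background, equalises the arrays' distributions and summarises probes, which narrows differences between arrays and compresses those of dim genes. The genome build is not given in the sources used here, and no coordinates, sequences or promoter motifs were analysed here.

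Of 75212 probe sets, 20806 carried 1 symbol in the platform annotation, 855 several and 53551 none. The single-symbol probe set with the highest mean over 26 arrays was kept for each of 19260 genes. Groups were taken from the sample labels, including the medial zone. limma 3.58.1 (R 4.3.3) was fitted with 1 mean per group over all 26 arrays (17 residual and 5.82 prior degrees of freedom), 15 comparisons were drawn from it, and p-values were adjusted by Benjamini-Hochberg over all genes of a comparison. The fit was tested on simulated data. With 2 to 4 arrays a group, their number limits the precision, and since animals per array are not stated, p-values measure the spread between these arrays.

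The members and all gene lists were chosen with earlier results of these data known. Every array is printed for the 23 members called in any comparison and for pcna, cdc6, ccne2, cdk1, ccnb1, MKI67 and top2a, the 4 members of each class with the smallest p are given for each day 2 comparison, other members by value, and of the other lists up to 4 called genes a comparison. Same-numbered arrays deviated together (every correlation over 0.1) between parenchyma and dorsal SVZ at both days (0.138 to 0.239) and between dorsal SVZ and medial zone at day 7 (0.131 to 0.2), and not between stages of a region, so the numbers were not used to pair the stages. Alternatives were array weights, removal of dim genes, every probe set, another normalization or scaling, another prior, fits of the compared regions alone, replicate blocks and leaving out each array.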

Additional observations from a re-analysis of the deposited data

Results flagged for a closer look

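Single arrays were checked 47 times, over the 45 members and the 2 class values in the 1 group of 4 arrays. In 2 checks an array stood apart from the rest of the group by Dixon's criterion, and chance gives about 5% of such checks. Both checks flagged the same array, the first of the medial zone at day 2. There chaf1b was at 4.73, with the other 3 arrays between 3.83 and 3.95, and the median deviation of the mitosis genes was 1.404, with the others between 1.002 and 1.02. Without that array 4 members were called against no lesion in the medial zone and 5 against day 7.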

How the results depend on the processing

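Of 750 counts and medians under the alternatives, 683 stayed within 1.5 times the count or the spread between arrays. Another prior, every probe set and fits of the compared regions alone leave the members' group means unchanged, so their class medians could not move. Counts of 0 that stayed at 0 are also among the 683. Of 1138 values of single called or tested members, 941 kept their side of the threshold, 186 lost it and 11 gained it. No called member changed direction, and changes of direction were not counted for members without a call. Among the latter, pcna in the parenchyma at day 2 went from 0.319 to −0.019 without the first unlesioned array. Fitted with the compared regions alone, the members called were 0 in the parenchyma at day 2 (2 as reported), 0 in the dorsal SVZ (1), 4 in the medial zone (8), and from day 2 to day 7 were 1 in the parenchyma (3) and 0 in the medial zone (14). With the replicate number as a block, calls were 1 in the parenchyma and 5 in the medial zone at day 2 and 6 in the medial zone from day 2 to day 7. Same-numbered arrays did not deviate together between the stages of a region, and did between some regions at days 2 and 7. No replicate block changed the count of calls elsewhere by over 1.5 times. Array weights gave 1 call in the parenchyma and 2 in the dorsal SVZ at day 2. New quantile normalization, subtraction of the array median, and a prior with trend each gave 0 in the dorsal SVZ at day 2. Removing dim genes moved replication medians to −0.344 and −0.881 (parenchyma and medial zone, day 7 minus day 2) and 1.153 (unlesioned medial zone minus parenchyma). That last median was 0.595 after quantile normalization and 0.637 after subtraction of the median, which also gave 0.075 and −0.236 (dorsal SVZ minus parenchyma, replication and mitosis) and 0.224 (medial zone minus parenchyma, mitosis). Without the 2 arrays of lowest weight, an alternative chosen after seeing the data as was the random block, the mitosis interaction of the dorsal SVZ minus the parenchyma was −0.021. The cause was not tested, beyond the fewer arrays or genes of some fits.

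Leaving out 1 array at a time gave calls at day 2 of 1 to 3 in the parenchyma, 0 to 1 in the dorsal SVZ and 0 to 9 in the medial zone, and of 0 to 1 in the parenchyma at day 7. From day 2 to day 7 it gave 1 to 5 in the parenchyma and 1 to 11 in the medial zone. Without a lesion it gave 1 to 3 for the dorsal SVZ minus the parenchyma, 1 to 3 for the medial zone minus the dorsal SVZ and 5 to 9 for the medial zone minus the parenchyma. The interactions against the parenchyma gave 0 to 1. Medians ranged at day 2 from 0.261 to 0.532 (parenchyma, mitosis), 0.181 to 0.454 (dorsal SVZ, replication) and 0.377 to 0.64 (dorsal SVZ, mitosis). For replication they ranged from −0.31 to −0.023 (dorsal SVZ, day 7 minus day 2), −0.923 to −0.73 (medial zone, day 7 minus day 2), 0.094 to 0.364 (dorsal SVZ minus parenchyma) and 0.568 to 0.894 (medial zone minus parenchyma). The interaction of the dorsal SVZ minus the parenchyma ranged from −0.053 to 0.24 for replication and −0.021 to 0.291 for mitosis. MKI67 from day 2 to day 7 in the parenchyma kept its call under every alternative run, and mybl2b in the medial zone lost it in the region fitted alone (adjusted p = 0.0549). Values near the median of 3.09 limit what dim genes can show.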
